A study of Mus musculus with 6 samples.

Results

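The genes described here are 10 chaperone genes of striated muscle, taken by name from the 23337 genes of the count table: 7 small heat shock protein genes (Cryab, Hspb1, Hspb2, Hspb3, Hspb6, Hspb7 and Hspb8), the co-chaperone gene Bag3, and the myosin chaperone genes Unc45b and Smyd1. Small heat shock proteins share an alpha-crystallin domain and hold unfolding proteins in a soluble state without using ATP, until the Hsp70 system refolds them or sends them to degradation. In cardiomyocytes (CMs) they bind desmin, titin, filamin and actin, and mutations in CRYAB and BAG3 are known causes of cardiomyopathy and myofibrillar myopathy. BAG3 joins HSPB8 to Hsp70 and delivers damaged Z-disc proteins to autophagy, whereas UNC45B folds the myosin motor domain together with Hsp90, and SMYD1 is a muscle methyltransferase that binds myosin during thick filament assembly.

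Wild-type mice received 5e8 vg per g of an AAV9 vector at postnatal day 1 (P1), and GFP-positive CMs were sorted at P14 after collagenase perfusion of the heart. In the SRF-OE group the vector carried serum response factor (SRF), a 2A peptide and GFP, and in the control group (GFP) it carried GFP alone, in both groups under the cardiac troponin T (cTNT) promoter. The dose was mosaic, so that a part of the CMs of each heart was transduced, and both groups carried the virus and GFP. The labels list 3 libraries per group, and the comparison asks how raising SRF changes the transcripts of maturing CMs.

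By the headers of the table, counts were present for 5 libraries, namely all 3 of GFP and replicates 2 and 3 of SRF-OE, since the column headed as SRF-OE replicate 1 held gene lengths. The total counts ranged from 14137433 to 23159631. Srf itself was at 360 and 748 CPM (counts-per-million of the library) in the SRF-OE libraries and at 67.2 and 85.0 CPM in GFP replicates 2 and 3, but at 338 CPM in the library labelled GFP1. The level of the targeted gene in that library goes against its label. If the header were displaced by 1 column, the column headed GFP1 would hold an SRF-OE library, and the replicate numbers of the other columns would shift. The first column, headed Chr, held gene symbols, so neither this header nor that of the gene lengths named its values. Whether the header was displaced or the library mislabelled was not tested. The group means, n and fold changes below hold for the names as given. The 5 libraries as labelled gave Srf a log2 fold change of 1.76 (SE, standard error, 0.71, edgeR adjusted p = 0.36), and the 4 libraries without that library 2.87 (SE 0.37, edgeR adjusted p = 0.044). Each member is therefore given for both sets of libraries, a choice made with the Srf values known. Because that library was set aside for its Srf level, the 4-library value and adjusted p of Srf follow from the choice and do not test it. All 8 CM markers examined were detected, with a summed level from 81704 to 136960 CPM, and 7 skeletal muscle markers together reached at most 2.20 CPM. In bulk libraries, fewer cells of a type and less RNA per cell cannot be told apart.

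At P14 the small heat shock protein genes spanned a wide range of levels in the sorted CMs, with Cryab, Hspb6 and Hspb7 the highest. On a per-length scale, in RPKM (reads per kilobase of the deposited gene length, scaled like CPM), the mean level over the 5 libraries was 1350 ± 641 for Cryab (SD, n = 5), 1008 ± 279 for Hspb6, 741 ± 115 for Hspb7 and 469 ± 376 for Hspb1. Cryab ranked from 21 to 108 among all genes of a library, Hspb6 from 46 to 106, Hspb7 from 82 to 123 and Hspb1 from 61 to 395, whereas Hspb3 ranked from 1813 to 2615. A lower tier held Hspb2 at 197 ± 33.4 RPKM, Hspb8 at 174 ± 16.4, Unc45b at 114 ± 48.9, Bag3 at 95.4 ± 16.6 and Smyd1 at 78.9 ± 7.11. Hspb3, whose protein pairs with HSPB2 in muscle, was the lowest at 31.7 ± 5.66 RPKM. Of the 9 pairs of neighbours in this order, Smyd1 and Hspb3 alone had ranges of levels that did not overlap. The means and SDs of this paragraph pool SRF-OE and GFP, so their spread holds any difference between the groups. Cryab was above Hspb6 in 3 of 5 libraries. In GFP replicates 2 and 3 it was below, at 746 and 940 RPKM beside 781 and 1001 for Hspb6. Unc45b was above Bag3 in 3 of 5, among them GFP replicates 2 and 3, and Hspb6 was above Hspb7 in 5 of 5.

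In SRF-OE the transcripts of the 10 genes did not move as a block. Hspb1 and Cryab had the highest fitted differences and Unc45b the lowest, and the other 7 genes stayed within 0.5 of 0 on the log2 scale in both fits. With the 5 libraries as labelled, 0 of the 10 genes had an adjusted p under 0.05 in edgeR's quasi-likelihood test, in which 0% of the 13754 genes tested were called in either direction. At an unadjusted p under 0.05, Hspb1 was higher (background 6.35% of genes higher) and Unc45b and Hspb3 were lower (background 7.59% lower). DESeq2 with the same libraries called Unc45b lower (background 19.7% of the 1079 genes to which its filter gave an adjusted p) and no member higher (background 1.02%). Without the library labelled GFP1, edgeR called 0 of the 10 higher (background 1.98%) and 1 lower, Unc45b (background 0.97%), and at an unadjusted p under 0.05 Hspb1 and Cryab were higher (background 14.4%) and Unc45b and Hspb3 lower (background 14%). The median log2 fold change of the 10 genes was 0.04 with the 5 libraries and 0.12 with the 4, beside 0.03 and 0.04 over all genes tested. In the 5 libraries, 3 of the 10 genes had groups that did not overlap, each lower in SRF-OE (background 17.3% lower), and in the 4 libraries 3 did so in each direction (background 30.8% higher and 30.2% lower).

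**Figure D1:**
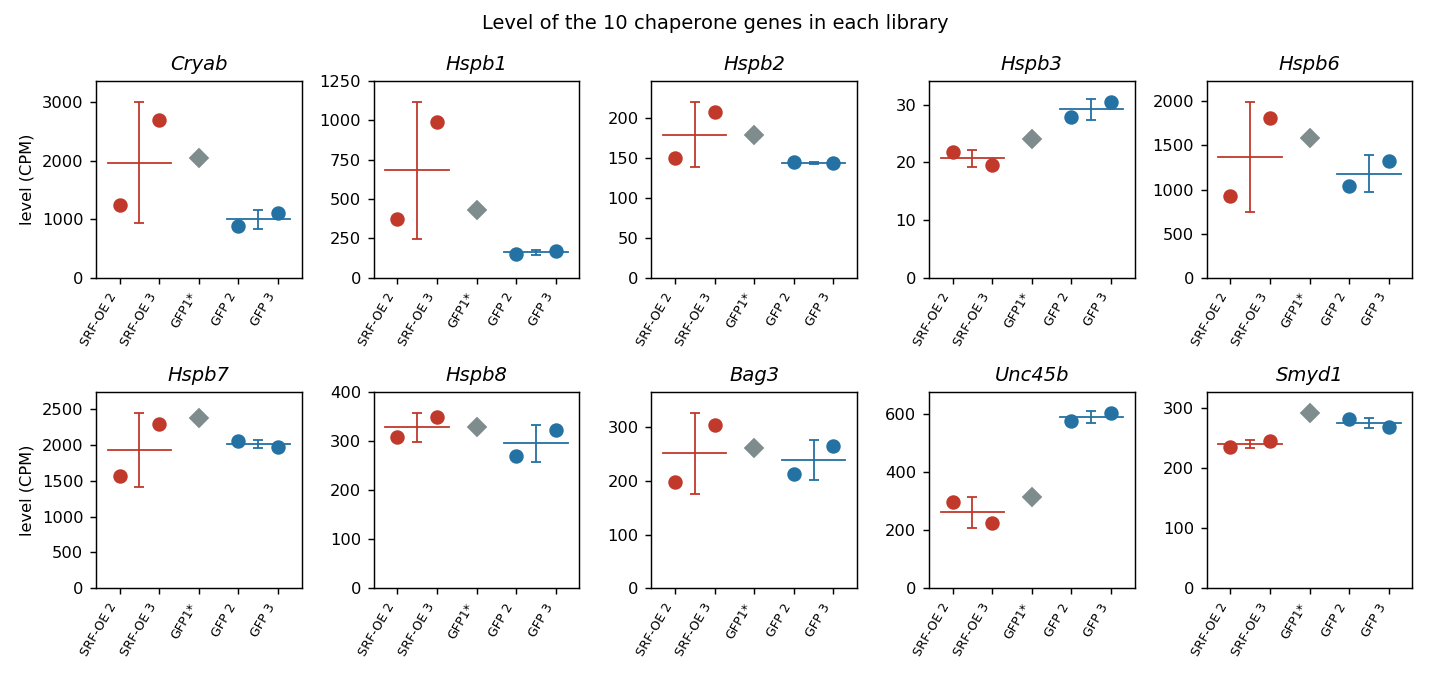
Level of each of the 10 genes in CPM (vertical axes from 0) in the 5 libraries (horizontal axes). Red points are SRF-OE replicates 2 and 3, blue points GFP replicates 2 and 3, and the grey diamond with a star in its name is the library labelled GFP1. Lines and bars give the mean and SD of the 2 red and of the 2 blue points. Hspb1 is above 375 CPM in both SRF-OE libraries and under 173 CPM in GFP replicates 2 and 3, Unc45b shows the opposite order, and Hspb6, Hspb7, Hspb8 and Bag3 overlap.

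Hspb1 encodes HSP27, a widely expressed small heat shock protein that binds actin filaments and is phosphorylated under stress. It was at 375 and 989 CPM in SRF-OE replicates 2 and 3, against 151 and 173 CPM in GFP replicates 2 and 3. The library labelled GFP1 had 431 CPM, above the lower SRF-OE library, so that the groups overlapped as labelled and lay apart without it. SRF-OE had a mean of 682 ± 434 CPM (SD, n = 2), beside 251 ± 156 CPM (SD, n = 3) in GFP and 162 ± 15.4 CPM (SD, n = 2) in GFP replicates 2 and 3. edgeR fitted a log2 fold change of 1.44 (SE 0.56, edgeR adjusted p = 0.36) with the 5 libraries and 2.08 (SE 0.44, adjusted p = 0.059) with the 4, which is a 4.24-fold higher fitted level that missed the cutoff. DESeq2 on the 4 libraries called Hspb1 higher, at a log2 fold change of 2.09 and an adjusted p of 0.022 (background 6.31% higher and 6.16% lower). Without SRF-OE replicate 3, the log2 fold change fell to 0.57 with the other 4 libraries as labelled. With the library labelled GFP1 left out as well, it was 1.21.

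The RefSeq promoter entry of Hspb1 is shown because this gene had the highest fold change, and it covers 250 bases before to 50 bases after the gene start (GRCm38.p6, chr5:135887669-135887968, plus strand). Capitals mark matches to GAANNTTC, a pair of inverted half-units of the heat shock element bound by heat shock factors, searched on both strands.
Hspb1: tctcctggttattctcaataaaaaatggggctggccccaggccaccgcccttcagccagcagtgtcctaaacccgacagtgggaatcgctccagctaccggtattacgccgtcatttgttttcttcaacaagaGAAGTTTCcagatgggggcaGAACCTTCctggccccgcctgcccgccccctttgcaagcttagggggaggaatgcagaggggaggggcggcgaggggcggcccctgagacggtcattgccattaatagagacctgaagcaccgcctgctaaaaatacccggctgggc
The matches start 117 and 97 bases before the gene start. A match was present in 5 of the 9 promoter entries found for 8 of the 10 genes, those of Hspb1, Hspb3, Hspb6, Hspb8 and Bag3, and in 7.86% of all 32851 entries of the same length. Of these 5 genes, Hspb1 had the 4-library log2 fold change of 2.08, and the other 4 lay between -0.49 (Hspb3) and 0.22 (Hspb6). Cryab and Hspb2 had no entry.

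Cryab encodes alpha B-crystallin, the main small heat shock protein of the heart and a chaperone of desmin. It was at 1239 and 2703 CPM in SRF-OE replicates 2 and 3, at 884 and 1114 CPM in GFP replicates 2 and 3 and at 2057 CPM in the library labelled GFP1. Both SRF-OE libraries were above GFP replicates 2 and 3, and the library labelled GFP1 lay between the SRF-OE libraries. Its log2 fold change was 0.54 (SE 0.45, edgeR adjusted p = 0.58) with the 5 libraries and 0.99 (SE 0.37, adjusted p = 0.15) with the 4. Without SRF-OE replicate 3 the 5-library value turned to -0.14, and the 4-library value fell to 0.31.

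Hspb2 lies head to head with Cryab on mouse chromosome 9 (GRCm38, Cryab from 50751325 to 50756636 on the plus strand and Hspb2 from 50751078 to 50752354 on the minus strand), and its protein binds the myotonic dystrophy kinase. The level of Hspb2 was 150 and 208 CPM in SRF-OE replicates 2 and 3, 179 CPM in the library labelled GFP1, and 145 and 143 CPM in GFP replicates 2 and 3. All 4 libraries without the library labelled GFP1 kept the order of groups seen for Cryab, with a smaller difference, a log2 fold change of 0.32 (SE 0.17, edgeR adjusted p = 0.28) beside 0.20 (SE 0.18, adjusted p = 0.61) with the 5 libraries. The ratio of Cryab to Hspb2 per length was 5.84 and 9.21 in the SRF-OE libraries, 8.14 in the library labelled GFP1 and 4.33 and 5.51 in GFP replicates 2 and 3, so the neighbours did not keep a fixed proportion. Their annotated exons overlap by 252 bp on opposite strands, 30.2% of the exons of Hspb2, and the strand setting of the counting is not given in the sources used here, so reads from the shared stretch are uncertain.

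Hspb3 was at 21.8 and 19.6 CPM in SRF-OE, 24.0 CPM in the library labelled GFP1 and 27.9 and 30.4 CPM in GFP replicates 2 and 3. The groups did not overlap in either set of libraries. Its log2 fold change was -0.41 (SE 0.16, edgeR adjusted p = 0.36) with the 5 libraries and -0.49 (SE 0.15, adjusted p = 0.10) with the 4. It missed the cutoff in both fits.

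Hspb6, Hspb7 and Hspb8 had groups that overlapped in both sets of libraries. Hspb6, known as HSP20 and as a target of cAMP-dependent kinase in the heart, was at 924 and 1809 CPM in SRF-OE replicates 2 and 3, 1587 CPM in the library labelled GFP1 and 1035 and 1327 CPM in GFP replicates 2 and 3. Hspb7, the cardiovascular small heat shock protein, was at 1568 and 2295 CPM in SRF-OE, 2378 CPM in the library labelled GFP1 and 2049 and 1968 CPM in GFP replicates 2 and 3. For both genes the 2 SRF-OE libraries lay on either side of GFP replicates 2 and 3. With the 5 libraries the log2 fold change was 0.05 for Hspb6 (SE 0.32) and -0.14 for Hspb7 (SE 0.23). Without the library labelled GFP1 it was 0.22 for Hspb6 (SE 0.33) and -0.05 for Hspb7 (SE 0.22), and the sign for Hspb7 turned positive, at 0.0013, with upper quartile scaling. Hspb8, the partner of BAG3, had the narrowest range of the 7 relative to its level, with 308 and 349 CPM in SRF-OE, 328 CPM in the library labelled GFP1 and 269 and 322 CPM in GFP replicates 2 and 3. Its log2 fold change was 0.10 (SE 0.15) with the 5 libraries and 0.16 (SE 0.15) with the 4, without a call.

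The summed level of the 7 small heat shock protein genes was 4586 and 8374 CPM in SRF-OE replicates 2 and 3, 6984 CPM in the library labelled GFP1, and 4560 and 5078 CPM in GFP replicates 2 and 3. The sum of SRF-OE replicate 2 thus lay between those of the latter 2 controls. The make-up of the sum differed in both SRF-OE libraries. Hspb1 took 13.4% and 18.2% of the per-length sum in SRF-OE, 10.2% in the library labelled GFP1, and 5.99% and 5.92% in GFP replicates 2 and 3. Cryab took 33.7% and 37.8% in SRF-OE against 26.7% and 29.1% in GFP replicates 2 and 3, with 37.0% in the library labelled GFP1. Hspb7 took 18.3% and 13.7% in SRF-OE against 26.5% and 22.0% in GFP replicates 2 and 3, and its 18.3% in the library labelled GFP1 was that of SRF-OE replicate 2.

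**Figure D2:**
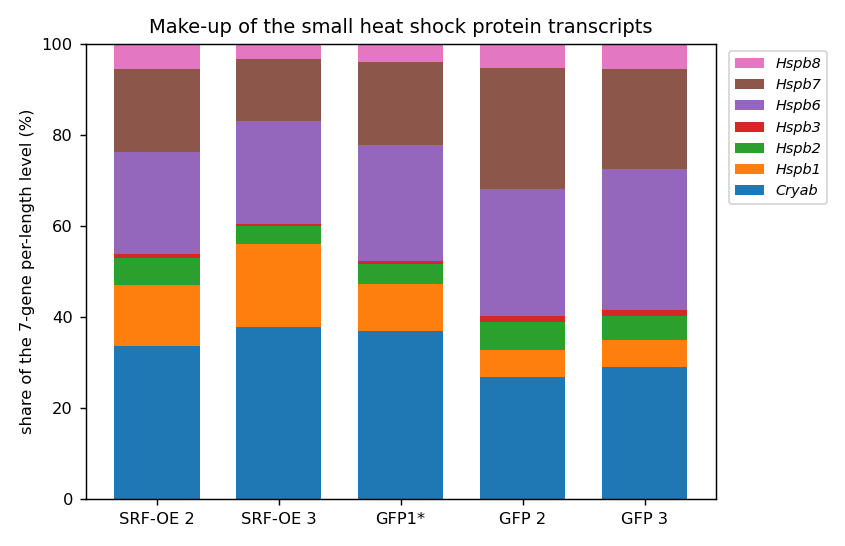
Share of each of the 7 small heat shock protein genes in their summed per-length level (vertical axis, percent, from 0 to 100) in each of the 5 libraries (horizontal axis), with the star marking the library labelled GFP1. Hspb1 takes 13.4% and 18.2% in SRF-OE replicates 2 and 3 and under 6% in GFP replicates 2 and 3, and Hspb7 takes less in SRF-OE than in those controls.

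The 2 SRF-OE libraries differed from each other in several of these genes. Hspb1 was 2.64-fold, Cryab 2.18-fold, Hspb6 1.96-fold and Bag3 1.54-fold higher in SRF-OE replicate 3 than in replicate 2, and 8 of the 10 genes were higher there. Over the 8522 genes with a mean of at least 10 CPM, the median of this log2 difference was 0.05 and the central 90% lay between -0.68 and 0.58. Hspb1 (1.40), Cryab (1.13), Hspb6 (0.97) and Bag3 (0.62) were above that range, and Smyd1 (0.06) and Hspb8 (0.18) were near its middle. Srf was 2.08-fold higher in SRF-OE replicate 3 than in replicate 2. With 2 libraries, the amount of SRF and other differences between them cannot be told apart.

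Bag3 encodes the co-chaperone that links Hsp70, HSPB8 and the autophagy machinery at the Z-disc. Bag3 was at 197 and 304 CPM in SRF-OE replicates 2 and 3, 260 CPM in the library labelled GFP1 and 212 and 264 CPM in GFP replicates 2 and 3. These last 2 libraries, and the library labelled GFP1, lay between the SRF-OE libraries. The fitted difference on the log2 scale was 0.03 (SE 0.21, edgeR adjusted p = 0.95) with the 5 libraries and 0.08 (SE 0.23, adjusted p = 0.85) with the 4. The ratio of Hspb8 to Bag3 per length was 2.23 and 1.64 in SRF-OE, 1.81 in the library labelled GFP1, and 1.82 and 1.74 in GFP replicates 2 and 3.

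Unc45b was the only gene of the 10 called by edgeR in the 4-library fit. It was at 298 and 224 CPM in SRF-OE replicates 2 and 3 and at 575 and 604 CPM in GFP replicates 2 and 3. The library labelled GFP1 had 316 CPM, nearer to the SRF-OE libraries, yet the groups did not overlap with it or without it. SRF-OE averaged 261 ± 52.6 CPM (SD, n = 2), against 498 ± 159 CPM (SD, n = 3) in GFP and 589 ± 20.3 CPM (SD, n = 2) in GFP replicates 2 and 3. SRF-OE over GFP, the log2 fold change was -0.93 (SE 0.31, edgeR adjusted p = 0.35) with the 5 libraries and -1.17 (SE 0.17, adjusted p = 0.047) with the 4, a fitted level 2.25-fold lower in SRF-OE. The 4-library call was lost with upper quartile scaling (adjusted p = 0.052) and with at least 10 counts required in every library (adjusted p = 0.056), at log2 fold changes of -1.11 and -1.14. With the 5 libraries, DESeq2 gave an adjusted p of 0.025 and, without its independent filtering, 0.14.

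Smyd1 changed less. It was at 236 and 246 CPM in SRF-OE replicates 2 and 3, 293 CPM in the library labelled GFP1, and 282 and 269 CPM in GFP replicates 2 and 3. The groups did not overlap, and the replicates of each group were close. The fitted difference on the log2 scale was -0.22 (SE 0.12, edgeR adjusted p = 0.41) with the 5 libraries and -0.19 (SE 0.12, adjusted p = 0.33) with the 4, which missed the cutoff. The ratio of Unc45b to Smyd1 per length was 1.20 and 0.861 in SRF-OE, 1.02 in the library labelled GFP1, and 1.93 and 2.12 in GFP replicates 2 and 3. The ratio of Unc45b to Myh6, the main myosin heavy chain of the mouse heart and a client of UNC45B, was 0.0126 and 0.00869 in SRF-OE, 0.0124 in the library labelled GFP1 and 0.0173 and 0.0150 in GFP replicates 2 and 3. That of Smyd1 to Myh6 was 0.0105 and 0.0101 in SRF-OE, 0.0121 in the library labelled GFP1 and 0.00896 and 0.00708 in GFP replicates 2 and 3. Myh6 itself had log2 fold changes of -0.42 (SE 0.39) with the 5 libraries and -0.57 (SE 0.33) with the 4, without a call in edgeR.

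The RefSeq promoter entries of both myosin chaperone genes are shown because the study turns on SRF, which binds the CArG box (GRCm38.p6, Unc45b at chr11:82911003-82911302 on the plus strand, Smyd1 at chr6:71262232-71262531 on the minus strand, each read 5′ to 3′ along the gene). Capitals mark a CArG box with 1 mismatch.
Unc45b: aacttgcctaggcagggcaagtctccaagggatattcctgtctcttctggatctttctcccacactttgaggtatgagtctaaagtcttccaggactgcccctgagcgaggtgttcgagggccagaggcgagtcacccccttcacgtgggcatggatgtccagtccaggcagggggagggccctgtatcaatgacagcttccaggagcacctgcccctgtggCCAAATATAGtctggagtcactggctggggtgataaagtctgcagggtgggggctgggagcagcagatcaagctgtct
Smyd1: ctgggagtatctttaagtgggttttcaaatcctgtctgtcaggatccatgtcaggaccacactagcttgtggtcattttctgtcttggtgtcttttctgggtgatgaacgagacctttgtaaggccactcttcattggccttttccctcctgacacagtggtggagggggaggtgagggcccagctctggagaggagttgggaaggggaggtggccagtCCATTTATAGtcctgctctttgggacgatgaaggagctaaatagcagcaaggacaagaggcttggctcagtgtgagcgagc
The marked letters start 28 bases before the start of Unc45b and 31 bases before that of Smyd1, where in Smyd1 they overlap a TATAAA on the other strand, a motif of 13.6% of all entries. A CArG box without mismatch was found in 0 of the 9 entries of the members and in 1.63% of all entries, and 1 with a single mismatch in 4 of the 9 and in 19.9% of all entries. The other entries with a mismatched box were those of Hspb1 and Hspb6.

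**Figure D3:**
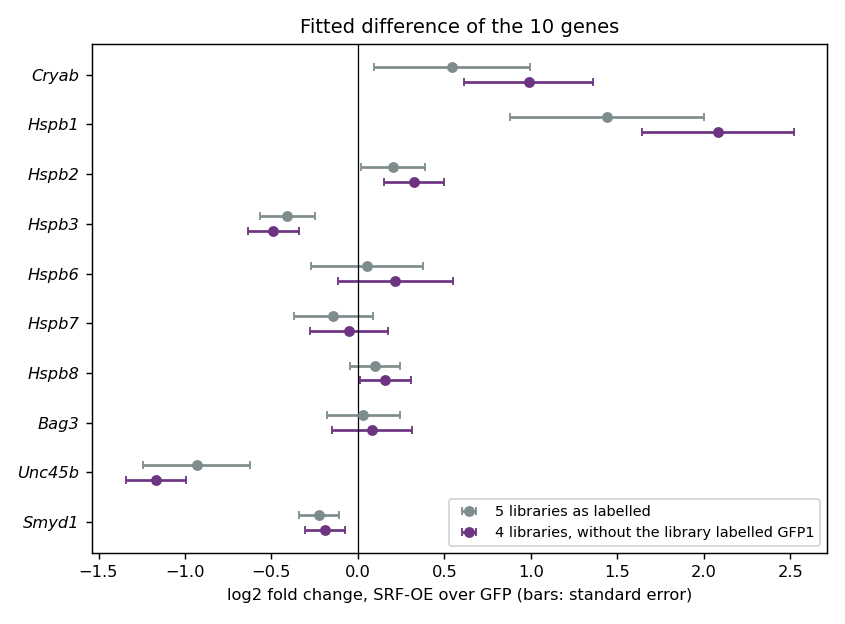
Fitted log2 fold change of each of the 10 genes, SRF-OE over GFP (horizontal axis), with its standard error (SE) as a bar, from edgeR with the 5 libraries as labelled (grey) and with the 4 libraries without the library labelled GFP1 (purple). Hspb1 (1.44 and 2.08) and Unc45b (-0.93 and -1.17) lie farthest from 0, and Hspb6, Hspb7 and Bag3 lie within 1 SE of 0 in both fits.

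The wider chaperone network was read from lists of genes beside the 10, with 0 genes of any list past the cutoff with the 5 libraries in edgeR. Of the 27 genes of the cytosolic Hsp70 and Hsp90 system, 1 was higher and 3 lower at an unadjusted p under 0.05 with the 5 libraries (background 6.35% and 7.59% of all genes). With the 4, 5 were higher and 5 lower (background 14.4% and 14%). Without the library labelled GFP1, Fkbp4 was the only gene past the cutoff (background 1.98% higher and 0.97% lower). Fkbp4, an Hsp90-binding immunophilin, was at 322 and 300 CPM in SRF-OE and 413 CPM in the library labelled GFP1 and 534 and 617 CPM in GFP replicates 2 and 3, a log2 fold change of -0.74 with the 5 libraries and -0.88 with the 4 (SE 0.14, edgeR adjusted p = 0.048). The kinase-specific Hsp90 adaptor Cdc37 was at 142 and 153 CPM in SRF-OE, 175 CPM in the library labelled GFP1 and 181 and 190 CPM in GFP replicates 2 and 3, and did not pass the cutoff. The Hsp110 family gene Hspa4l, at 55.6 and 69.0 CPM, 71.7 CPM, and 84.2 and 89.4 CPM in the same order, did not pass either. Other stress-responsive genes of this list were looked at after their values were seen. Hsp90aa1, the inducible cytosolic Hsp90, was at 114 and 217 CPM in SRF-OE, 127 CPM in the library labelled GFP1 and 58.7 and 74.1 CPM in GFP replicates 2 and 3, with log2 fold changes of 0.93 with the 5 libraries and 1.33 with the 4 (SE 0.31, edgeR adjusted p = 0.066). The inducible Hsp70 genes Hspa1a and Hspa1b, near-identical copies whose reads are uncertain, had 4-library values of 1.16 (SE 0.79) and 1.91 (SE 0.83). Hsph1 (0.02), Dnajb1 (0.20) and the constitutive Hspa8 (0.05) lay near 0 in that fit, and none of the 6 passed the cutoff in edgeR in either fit.

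Among 16 genes of the BAG family and of chaperone-assisted selective autophagy, 0 were higher and 3 lower at an unadjusted p under 0.05 with the 5 libraries (background 6.35% and 7.59%), and 3 were higher and 4 lower with the 4 (background 14.4% and 14%). Synpo2, a Z-disc protein that binds BAG3 and links it to autophagosome membranes, was at 75.7 and 79.5 CPM in SRF-OE and 112 CPM in the library labelled GFP1 and 126 and 149 CPM in GFP replicates 2 and 3. It passed without the library labelled GFP1 (log2 fold change -0.82, SE 0.13, edgeR adjusted p = 0.048), and the 5-library value was -0.73. Map1lc3a, an LC3 gene, and Ywhag, a 14-3-3 gene whose protein binds BAG3, had 4-library log2 fold changes of -0.37 and -0.47 and did not pass. These genes named by the rule were all lower, but in both fits 7 of the 16 were positive and 9 negative. The values farthest from 0 in the 4-library fit were positive, 1.03 for Gabarapl1 (SE 0.29) and 0.96 for Sqstm1 (SE 0.30). With the 5 libraries they were 0.63 and 0.53, and neither gene passed in edgeR in either fit.

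Of 18 other myosin assembly genes and filament clients, 1 passed without the library labelled GFP1 (background 1.98% of genes higher and 0.97% lower). This was Vim, the intermediate filament gene of non-muscle and immature cells, at 87.2 and 83.2 CPM in SRF-OE, 59.7 CPM in the library labelled GFP1, and 28.2 and 31.0 CPM in GFP replicates 2 and 3 (log2 fold change 1.53, SE 0.13, edgeR adjusted p = 0.042, and 1.10 with the 5 libraries). Fibroblasts also express Vim, and the summed level of 8 fibroblast markers was 820 and 421 CPM in SRF-OE, 441 CPM in the library labelled GFP1 and 356 and 307 CPM in GFP replicates 2 and 3. Of these 8 markers, 5 were higher at an unadjusted p under 0.05 with the 5 libraries (background 6.35% of genes higher). With the 4, 1 passed the cutoff (background 1.98% higher). The part of fibroblast content in the rise of Vim was not tested. Mybpc3, myosin binding protein C, was at 5307 and 3626 CPM in SRF-OE, 5040 CPM in the library labelled GFP1 and 8868 and 9925 CPM in GFP replicates 2 and 3, and Capzb, a capping protein gene whose product is held by BAG3, had a log2 fold change of -0.33, neither past the cutoff.

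The 9 mitochondrial chaperone and protease genes had negative log2 fold changes throughout with the 5 libraries, with a median of -0.28, and 4 of them were lower at an unadjusted p under 0.05 (background 7.59% of all genes). Without the library labelled GFP1 the median was -0.34 and 8 of 9 were negative. In that fit 0 passed the cutoff, with 5 lower at an unadjusted p under 0.05 (background 14%). Over all genes tested, 6420 of 13754 were negative with the 5 libraries and 6270 of 13397 with the 4. The 8 CM markers had medians of -0.43 and -0.55, and the part of CM content in the mitochondrial values was not tested. Dnaja3, a J-domain partner of mitochondrial Hsp70, was the lowest at -0.68. It was at 206 and 205 CPM in SRF-OE and 251 CPM in the library labelled GFP1 and 309 and 354 CPM in GFP replicates 2 and 3. The nucleotide exchange factor gene Grpel1 had -0.50 and the chaperonin gene Hspd1 -0.45. With the 5 libraries, DESeq2 called 4 of the 9. Its filter gave an adjusted p to 1079 genes, of which it called 19.7% lower. Without that filter it called 0.135% of 21558 genes lower, and the values of these 9 genes in that fit are not given here.

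The remaining lists had 0 genes past the cutoff in edgeR in both fits. The 13 cytosolic chaperonin and prefoldin genes tested had a median log2 fold change of 0.05 with the 5 libraries and 0.10 with the 4. With the 4, 1 gene was higher at an unadjusted p under 0.05 (background 14.4% higher). Cct2 (0.27), Cct4 (-0.15) and Pfdn2 (0.38) were named by the rule. The 13 endoplasmic reticulum chaperones had medians of 0.07 and 0.01. Sdf2l1, a co-chaperone of the ER Hsp70, was at 9.24 and 18.7 CPM in SRF-OE and 10.3 CPM in the library labelled GFP1 and 5.68 and 4.97 CPM in GFP replicates 2 and 3, and did not pass. Dnajc3 and Pdia6 had log2 fold changes of 0.53 and 0.26 with the 4 libraries, without a call. Among the 4 genes of heat shock factors and their binding protein, whose median was 0.36 with the 5 libraries and 0.61 with the 4, Hsf2 was at 10.7 and 11.7 CPM in SRF-OE, 11.2 CPM in the library labelled GFP1, and 6.42 and 5.52 CPM in GFP replicates 2 and 3, a log2 fold change of 0.53 with the 5 libraries and 0.91 with the 4 (edgeR adjusted p = 0.069). Hsf4 (1.00) and Hsbp1 (0.32) did not pass, nor did Hsf1, the main stress-activated factor, with -0.14. Of the other small heat shock protein genes, Hspb11 was the only one with enough counts to be tested, at 3.30 to 5.13 CPM, and Cryaa, Hspb9 and Odf1 were at or under 0.158 CPM in every library.

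**Figure D4:**
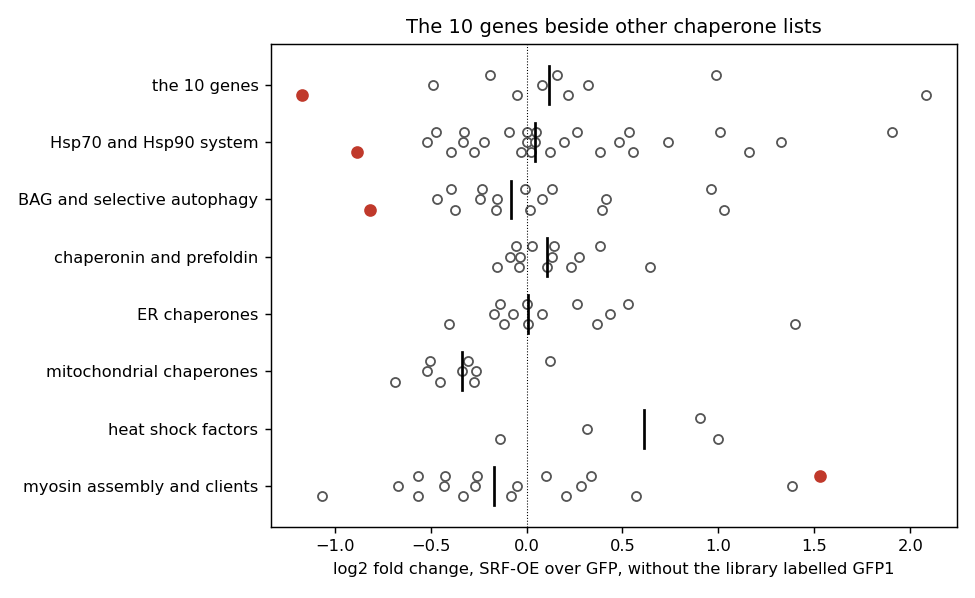
Log2 fold change, SRF-OE over GFP, without the library labelled GFP1 (horizontal axis) for the 10 genes and for 7 other lists of chaperones and their clients (rows). Each circle is a gene, filled red where its adjusted p in edgeR is under 0.05, and black bars are medians. The red circles are Unc45b, Fkbp4 and Synpo2 on the left and Vim on the right, and the mitochondrial chaperones lie left of 0 but for 1 gene.

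Other cell types in the sort were read from their markers. The summed level of 8 endothelial markers was 801 and 314 CPM in SRF-OE replicates 2 and 3, 630 CPM in the library labelled GFP1, and 344 and 339 CPM in GFP replicates 2 and 3. Endothelial cells also express Hspb1, which was at 375 and 989 CPM, 431 CPM, and 151 and 173 CPM in the same order of libraries, and the part of endothelial content in its level was not tested. The summed level of the 8 CM markers was 88808 and 81704 CPM in SRF-OE, 93492 CPM in the library labelled GFP1 and 118672 and 136960 CPM in GFP replicates 2 and 3, the same order of groups as Unc45b. In the 4-library fit the median log2 fold change of these markers was -0.55, with 0 of 8 called, beside -1.17 for Unc45b, and the part of CM content in the fall of Unc45b was not tested. The summed level of 8 smooth muscle and pericyte markers was 871 and 774 CPM in SRF-OE, 792 CPM in the library labelled GFP1 and 1153 and 1639 CPM in GFP replicates 2 and 3. The median log2 fold change of these markers was nonetheless positive, at 1.20 in the 4-library fit. In that fit 2 were called higher (background 1.98%) and 1 lower (background 0.97%). Of 7 leukocyte markers listed, 6 were in the table, with a sum from 9.94 to 29.4 CPM. The 4 atrial markers summed to 2317 and 2391 CPM in SRF-OE, 910 CPM in the library labelled GFP1 and 1668 and 185 CPM in GFP replicates 2 and 3. The 2 controls of the 4-library fit thus differed widely in these markers, and the part of atrial content in the members was not tested. Of the 3 erythroid markers in the table, 2 were at 0 in every library.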

How the data were processed

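RNA-seq of GFP-positive CMs sorted at P14 was analysed for SRF-OE and GFP. The authors aligned single-ended reads to mm10 with STAR 2.5.3a and counted them per gene with featureCounts (Subread 1.5.2), per the labels' processing notes, and deposited raw counts without normalization. The deposited column headed OE1 holds another value, gene length in bp, with 0 zeros, and was used only as length. The 5 count columns were matched to libraries by the titles in the header. The first column is headed Chr and holds gene symbols. A header displaced by 1 column was not tested against a mislabelled library, and no column was moved to another group. In all, 0 columns of values were left unused.

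Counts were fitted over all genes with edgeR 4.0.16 in R 4.3.3 (filterByExpr, TMM, glmQLFit, glmQLFTest, Benjamini-Hochberg, cutoff 0.05). The standard error is the log2 fold change divided by the square root of F. CPM used the TMM factors of the 5 libraries. DESeq2 1.42.0, other scalings and filters, the replicate block and leaving out libraries were alternatives. Fits were tested on simulated counts. Positions are from GENCODE for GRCm38, and promoters from RefSeq on GRCm38.p6. The 10 genes and the lists were chosen with earlier results of these data known. Genes named beside the 10 and Srf are the 3 with the smallest unadjusted p of each list in the 5-library fit and any past the cutoff in either fit. Myh6, Hsp90aa1, Hspa1a, Hspa1b, Hsph1, Dnajb1, Hspa8, Gabarapl1, Sqstm1, Hsf1, Cryaa, Hspb9 and Odf1 were named after their values were seen. Pfdn6 was listed but is not analysed here. The 3 replicates per group were described as biological.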

Additional observations from a re-analysis of the deposited data

How the results depend on the processing

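The log2 fold change of Srf ranged from 1.13 to 2.87 with 1 of the 5 libraries left out (2.87 being the value without the library labelled GFP1, edgeR adjusted p = 0.044) and was 2.78 with the replicate block. Without the library labelled GFP1 it ranged from 2.24 to 3.30 when a further library was left out, and lost its call without GFP replicate 2 or 3 (edgeR adjusted p = 0.23 and 0.20) and, at 2.89, with at least 10 counts in every library. With the 5 libraries, the main fit called 0 members. DESeq2 called 1 lower, as did the replicate block and the fit without the library labelled GFP1. The block also called 1 higher (Hspb1, 1.92, edgeR adjusted p = 0.023, background 4.23% higher and 3.14% lower). Only the library labelled GFP1 has replicate number 1, so in this block fit it adds nothing to the group difference. The block without it gave nearly the same values, 2.78 for Srf, 1.92 for Hspb1 and -1.18 for Unc45b. The block calls therefore do not show calls made with that library as a control. In the 4-library fits, the members called higher went from 0 to 1 with DESeq2, with or without independent filtering, and with the block (background 4.08%), to 2 with no filter on low counts (background 7.75%), and from 0 to 4 with a further library left out (4 without SRF-OE replicate 2, background 11.7%). Those called lower went from 1 to 0 with upper quartile scaling and with at least 10 counts, and from 0 to 2 with a further library left out (2 without SRF-OE replicate 2, background 11.6%). Unc45b lost its call without GFP replicate 2 or 3 (adjusted p = 0.23 and 0.24), and fits that leave 1 library in a group assume that it varies like the other group.

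Directions turned only for members without a call in the main edgeR fit of either set of libraries. Of these members, Cryab was called higher in the 4 libraries with no filter on low counts. With a library left out, the 5-library values ranged from -0.14 to 1.00 for Cryab, -0.060 to 0.42 for Hspb2, -0.52 to 0.46 for Hspb6, -0.45 to 0.11 for Hspb7, -0.0048 to 0.19 for Hspb8 and -0.32 to 0.31 for Bag3. The 4-library values ranged from -0.36 to 0.62 for Hspb6, -0.36 to 0.20 for Hspb7 and -0.27 to 0.36 for Bag3, and upper quartile scaling gave Hspb7 0.0013. Hspb1, Hspb3, Unc45b and Smyd1 kept their direction under every alternative run.

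Over all genes tested, edgeR called 0% in either direction with the 5 libraries, 2.95% without the library labelled GFP1 and 7.37% with the block. DESeq2 called 20.8% of the 1079 genes to which its filter gave an adjusted p. Genes called in the Hsp70 and Hsp90 list went from 0 to 1 without the library labelled GFP1, 3 with the block and 1 with DESeq2. In the BAG and autophagy list they went from 0 to 1, 2 and 1, in the myosin assembly list to 1, 1 and 1, and in the mitochondrial list to 1 with the block and 4 with DESeq2. The causes were not tested. The DESeq2 fits without independent filtering and the fits that left out a library beside the library labelled GFP1 were chosen after seeing the data.

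The labels share replicate numbers between groups but do not say that a number marks a shared litter or day. Across genes, the deviations of libraries with the same number had a correlation of 0.37 for number 2 and -0.060 for number 3 with the 5 libraries. With the 4 libraries it was 0.20 for both numbers, which must be equal with 2 libraries per group. The numbers would also shift with a displaced header, so these values cannot decide whether to block. The main fit was planned without a block.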
